A study of Mus musculus with 4 samples.

Results

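Across 4 single-cell libraries of leukocytes from mouse liver tumours, 2957 of 50062 deposited cell barcodes met a gate for cells bearing Ly6c2 and Ccr2 and low in C1q. They were chosen on measured transcripts. A barcode needed 300 or more detected genes and a mitochondrial share below 15% of UMIs (unique molecular identifiers, each 1 counted RNA molecule). It also needed at least 3 UMIs of Ly6c2 and Ccr2 together, at least 5 of Csf1r and Lyz2, and under 1% of its UMIs from C1qa, C1qb and C1qc. Cd3d, Cd3e, Cd3g, Klrb1c and Ncr1 had to be at 0, Flt3, Cd209a and Siglech together at most 1 UMI, Cd79a at most 1 UMI, and S100a8 with S100a9 under 0.3% of UMIs. The gate took 797 cells from LFD_WT, 448 from LFD_shYap, 869 from HFD_WT and 843 from HFD_shYap.

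The tumours were liver metastases of MC38, a mouse colon carcinoma line, in wild-type C57BL/6J mice. They were separated from the non-tumour liver, and their dissociated cells were selected with magnetic beads against CD45, a surface protein of all leukocytes. Each library was 1 combination of diet and tumour line, with no second library of any combination. LFD_WT came from mice on a low-fat diet bearing MC38 labelled WT, and HFD_WT from mice on a high-fat diet bearing the same line. LFD_shYap and HFD_shYap carried MC38 labelled shYap, a knockdown derivative, on the low-fat and the high-fat diet. The knockdown was in the tumour line and the mice were wild type in all 4 groups, so Yap1 in host cells checks nothing about it: its level in the gated cells was 1.24, 0.783, 1.44 and 0.653 CPM. Age, time on the diet and the number of mice per library were not analysed here. The series asks how diet and the knockdown alter the immune cells of the tumour.

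Values for the libraries are given below in the order LFD_WT, LFD_shYap, HFD_WT and HFD_shYap. A level is in CPM, a gene's UMIs per 1000000 UMIs summed over the gated cells of 1 library. The gated cells held 8094294, 5106627, 10411319 and 12258221 UMIs in all, and a median of 7410, 8991, 9063 and 11182 UMIs per cell. The labels of LFD_shYap disagree on diet: the low-fat diet of its title was used here, while the treatment field names the high-fat diet. HFD_shYap stood apart in sex-linked RNA. Of its 843 gated cells, 216 held Xist UMIs and none from the Y-linked genes, 446 the reverse, 56 both and 125 neither, while no gated cell of the other 3 libraries held an Xist UMI. It therefore held cells of both sexes, and the fits were repeated with each fraction in its place. Between 33 and 63 barcodes were shared by any pair of libraries, with 1 gated barcode shared by HFD_WT and HFD_shYap.

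Classical monocytes are blood cells made in the bone marrow. They leave it with the chemokine receptor Ccr2, carry the surface protein Ly6C (Ly6c2) and enter inflamed tissue and tumours. There many become macrophages over days, losing Ly6c2, Ccr2 and the chitinase-like protein Chil3, and gaining complement C1q, the lipid carrier Apoe and scavenger receptors. In tumours such cells are known as sources of arginase, nitric oxide synthase and chemokines that act on T cells.

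The genes of the gate and its markers were read first, as a description, since they chose the cells. Ly6c2 stood at 721, 1801, 717 and 309 CPM, highest in LFD_shYap and lowest in HFD_shYap. In the C1q macrophages, 18934 cells that met the same thresholds but had C1q at 1% or more and no requirement on Ly6c2 or Ccr2, it stood at 24.5, 86.5, 34.1 and 22.99. Ccr2, the receptor for Ccl2, was at 488, 488, 388 and 416 CPM in the gated cells and at 106, 81.05, 112 and 134 in the macrophages. Plac8, a lysosomal protein of blood monocytes, was at 1596, 1977, 1793 and 858 against 87.7, 88.3, 97.8 and 56.00. Chil3 was at 3741, 9501, 1818 and 1437 against 149, 279, 99.3 and 61.7, highest in LFD_shYap and lowest in HFD_shYap. The other monocyte markers Vcan (versican, 262, 250.5, 253 and 139 CPM) and Ifitm6 (141, 162, 104 and 70.3) were lower in the macrophages of the same library in all 4. Ly6c1, a near-identical copy of Ly6c2, was at 3.95, 2.94, 3.46 and 0.653 CPM, and the split of reads between the pair is uncertain.

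The gate marked a range, not a separate population. When the Ly6c2/Ccr2-bearing phagocytes were cut into 6 bins of C1q, the levels of Ly6c2, Chil3, Ccr2 and Apoe differed between bins on both sides of the 1% threshold. The steps were uneven: in HFD_WT the widest step of Ly6c2 by ratio was at the threshold, from 306 to 131 CPM. In LFD_WT, Ly6c2 was at 1234, 865, 253 and 242 CPM in the 4 bins under 1% and at 149 and 58.6 in the 2 bins above it. Chil3 in the same bins was at 6236, 3520, 3024 and 1078 and then at 525 and 209 CPM, while Apoe, which the gate did not use, ran from 9690 to 22570 under 1% and on to 38193 in the highest bin. In HFD_shYap, Ly6c2 ran from 688 to 115 CPM under 1% and stood at 80.9 just above it. HFD_shYap also had the most cells near the threshold: 50.4% of its gated cells had C1q of 0.5% or more, against 33.5%, 29.0% and 29.9% in the other 3 libraries. At the other edge, cells with exactly 3 UMIs of Ly6c2 and Ccr2 made up 14.8%, 12.1%, 13.3% and 15.3% of the gate. Their Plac8 was at 579, 1007, 1175 and 452 CPM, against 486, 808, 868 and 367 in cells with 2 UMIs, just outside. Cells with no Ly6c2 UMI, which entered through Ccr2 alone, were 43.5%, 26.8%, 28.3% and 51.2% of the gate.

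**Figure D1:**
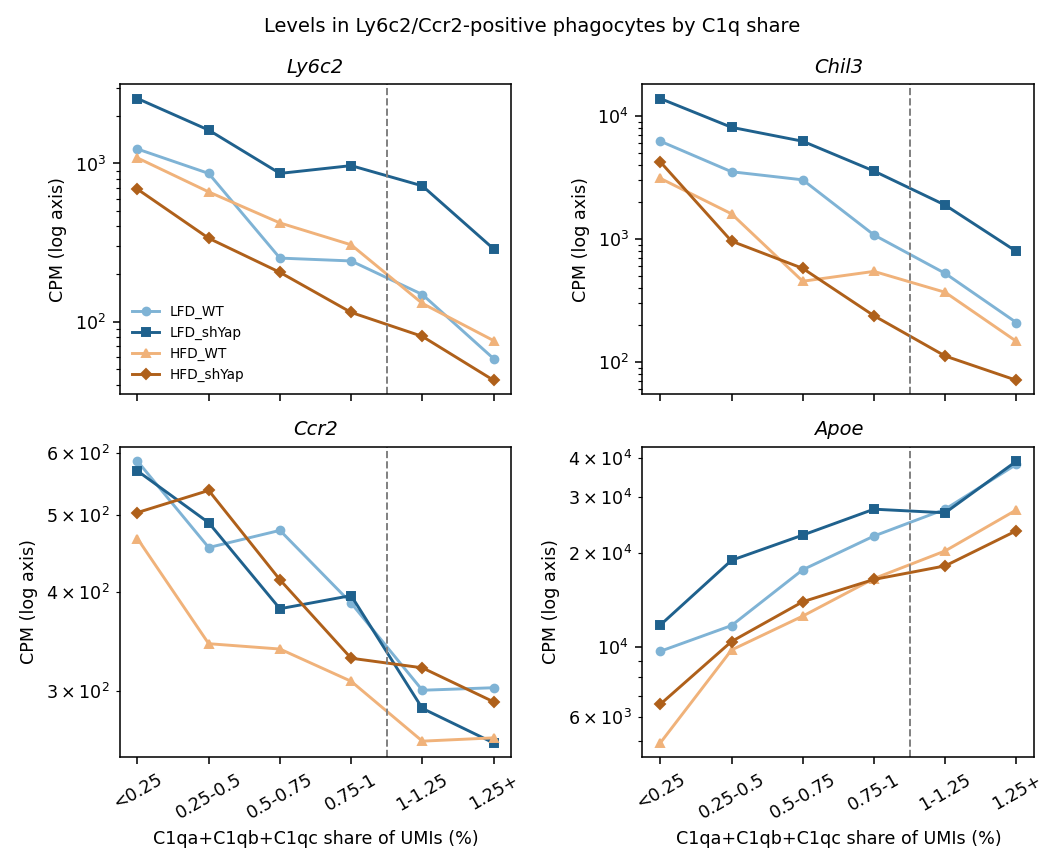
Level (CPM, log axis) of Ly6c2, Chil3, Ccr2 and Apoe in Ly6c2/Ccr2-bearing phagocytes of each library, in 6 bins of the share of UMIs from C1qa, C1qb and C1qc, with the gate's 1% threshold as a dashed line. From the lowest to the highest bin Ly6c2 and Chil3 go down and Apoe goes up in every library, though not at each step, with LFD_WT at 1234 CPM of Ly6c2 in the lowest bin and 58.6 in the highest.

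Free RNA in the droplets can give UMIs to cells that do not make a gene. B cells reached 3 UMIs of Ly6c2 and Ccr2 in 3 of 111, 1 of 34, 0 of 48 and 2 of 52 cells, at median depths of 2369, 4454, 3617 and 3182 UMIs. They held Ly6c2 at 178, 59.8, 2.23 and 20.8 CPM and Ccr2 at 10.1, 0, 1.11 and 2.31. Free RNA and their own expression cannot be told apart in these counts. Apoe in the B cells was at 5541, 1776, 901 and 1414 CPM. Their median C1q share was 0.283%, 0.085%, 0.144% and 0.0948%, beside 0.256%, 0.159%, 0.162% and 0.503% in the gated cells. A score for doublets, in which more than 1 cell shares a barcode, placed 12.7%, 6.92%, 10.5% and 4.86% of the gated cells among the likely doublets; they were kept in the main values and removed in an alternative.

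Beside the C1q macrophages of the same library, 56 of 2546 well-expressed genes were at least 2 times higher in the gated cells in all 4 libraries and 33 at least 2 times lower. This is a description with no test, since the gate divides these cells by genes of the same RNA. Factor X (F10), a clotting protease, was at 119.6, 225, 182 and 148 CPM against 12.2, 14.6, 18.2 and 21.3. The protease Napsa was at 185, 237, 173 and 123 against 17.2, 19.5, 20.04 and 16.96, and haptoglobin (Hp), a hemoglobin-binding protein, at 138, 462, 181 and 89.2 against 9.12, 24.1, 11.6 and 6.53. The leukotriene B4 receptor Ltb4r1, the homeodomain protein Hopx, the granule protein Mcemp1, glutathione reductase (Gsr) and the receptor Gpr141 were on the same side. On the lower side, the adhesion receptor Vcam1 was at 74.2, 118, 90.3 and 146 CPM against 286, 759, 345 and 463, and the chemokine Ccl8 at 93.4, 30.7, 118 and 109.8 against 484, 206, 662 and 697. Folr2, Cd72, Cd81, Cbr2, Hpgds, Ms4a7, Fcrls, C4b, Cela1 and Smagp were also lower in the gated cells of all 4 libraries.

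The gated cells were heterogeneous. Clustered on their own they fell into 11 sub-clusters, described here by their leading genes, which are not results. Sub-cluster 1 (777 cells) led with the macrophage genes Selenop, Mrc1 and Mertk. Sub-cluster 2 (420) led with Ccl17 and Mgl2, which are also dendritic cell markers, and its leading genes included the NK cell marker Klrd1. Sub-cluster 3 (407) led with Ccl24, Chil3 and Fn1, sub-cluster 4 (386) with the interferon-induced Rsad2, Ifit3 and Isg15, and sub-cluster 5 (272) with the heat shock genes Hspa1a and Hspa1b and with Inhba. Sub-clusters 6 (228) and 7 (158) led with Lcn2, Mmp8 and Hp, and 126 of the 158 cells of sub-cluster 7 came from LFD_shYap, so that it cannot be told apart from that library. Sub-cluster 8 (149) led with the cycling genes Top2a and Mki67. The smallest 3 also held other cell types' genes: sub-cluster 9 (72 cells, 79.2% scored as doublets) Col3a1 and Dcn, sub-cluster 10 (61) Xcr1 and Clec9a, and sub-cluster 11 (27) Gzma and Il2rb. Sub-cluster 9 carried the fibroblast markers Col3a1, Dcn and Sparc, with Col1a1 at 123 and Col1a2 at 16.7 CPM. It also led with Tm4sf1, a marker of the tumour cells, at 480 CPM, so it is not named as either. Sub-cluster 10 was like type 1 conventional dendritic cells by Xcr1, Clec9a and Itgae.

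By Chil3, the label of Ly6c2/Ccr2 monocytes thus held for part of the cells. In sub-clusters 3 to 7 the summed Chil3 level was over 4000 CPM, from 4851 to 19828, and in the other 6 it was from 147 to 970. Cells with 3 or more UMIs of Ly6c2, a gene of the gate, were 42.0% to 88.0% of sub-clusters 3 to 7 and 18.1% to 44.4% of the others. Ccr2 and F13a1 did not divide them so. Ccr2 was at 488 CPM in sub-cluster 2 and 456 in sub-cluster 5, and F13a1 at 774 in sub-cluster 1 and 395 in sub-cluster 4. Sub-clusters 3 to 7, called Chil3-high below, held 1451 of the 2957 gated cells (49.1%). They made up 59.7%, 70.8%, 45.2% and 31.4% of the gated cells of the 4 libraries, while sub-cluster 1 made up 15.9%, 11.4%, 22.3% and 48.0%. Because these sub-clusters were built from the same genes that are compared below, their sizes are given only as the makeup of each sum. A whole-gate level therefore mixes a level per cell with this makeup, and fewer cells of a kind cannot be told apart in it from less RNA per cell. Values in the Chil3-high cells, a set chosen after the data were seen, are given beside the main genes and lists.

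The gated cells were 6.34% (95% interval 5.92 to 6.78%) of the kept barcodes of LFD_WT, 4.50% (4.11 to 4.93%) of LFD_shYap, 7.11% (6.66 to 7.58%) of HFD_WT and 10.7% (10.0 to 11.4%) of HFD_shYap. Intervals are exact Clopper-Pearson and cover counting error only, and the shares were not tested between conditions. HFD_WT was above LFD_WT by 0.771 percentage points (Newcombe 95% interval 0.148 to 1.40), and HFD_shYap above LFD_shYap by 6.19 (5.40 to 6.99). HFD_shYap was above HFD_WT by 3.58 (2.77 to 4.41), and LFD_shYap was on the other side of LFD_WT, at -1.84 (-2.42 to -1.24). These gaps moved with depth and with the edge of the gate. After every cell was thinned to 3000 UMIs, which left out 3223, 1551, 2460 and 1394 shallower barcodes, the shares were 4.79%, 3.45%, 4.76% and 5.05%, and the gap of HFD_shYap to HFD_WT was 0.298 points (-0.373 to 0.989). With C1q under 0.5% that gap was 0.317 points (-0.303 to 0.953). LFD_shYap had the lowest share under each of these settings. The Chil3-high cells alone were 3.79% (3.46 to 4.14%), 3.19% (2.85 to 3.55%), 3.22% (2.91 to 3.54%) and 3.36% (2.97 to 3.78%) of the kept barcodes. On that count LFD_WT was highest and HFD_shYap did not stand above the others, with the reserve that the set was built from genes that differ between the libraries.

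**Figure D2:**
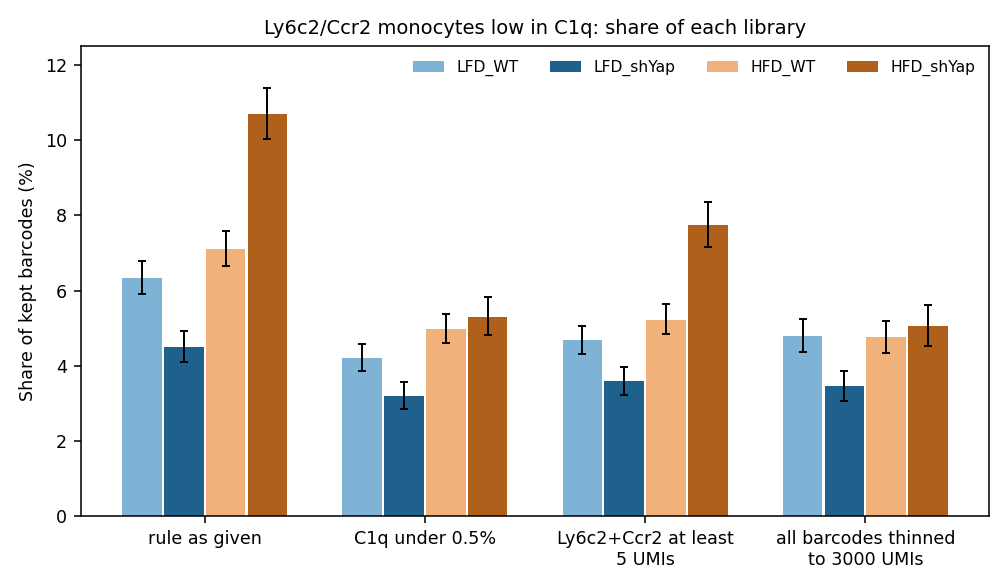
Share of kept barcodes (percent) that met the gate in each library, under the rule as given, with C1q under 0.5%, with at least 5 UMIs of Ly6c2 and Ccr2, and after thinning to 3000 UMIs; bars are exact Clopper-Pearson 95% intervals for counting error. HFD_shYap is highest at 10.7% under the rule as given and at 5.05% after thinning, where HFD_WT and LFD_WT stand at 4.76% and 4.79%.

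Diet was tested across both tumour lines with the edgeR quasi-likelihood test on the summed counts, with tumour line as the other term and 1 residual degree of freedom. High-fat was higher for 22 of 11554 genes (0.19%) and lower for 23 (0.199%) at an adjusted p under 0.05. The UMIs of many of these genes sat in a few cells. Of the 22 higher genes, 8 had over 25% of all their UMIs in 1 cell. Of the 23 lower genes 14 had over 75% in sub-cluster 9 and 5 over 25% in 1 cell, 4 of them among those 14. Ctsk, the bone-resorbing protease cathepsin K, had 8, 2, 160 and 404 UMIs, of which 1 HFD_shYap cell held 377 and 1 HFD_WT cell 151. The hemoglobin gene Hbb-bs had 39, 8, 3083 and 4 UMIs, with 3023 in 1 HFD_WT cell, and Hba-a1, Hba-a2 and Hbb-bt were alike. Mt3, Slc9b2 and Cstdc4 were the other higher genes of this kind. Lower genes of sub-cluster 9 included the collagens Col3a1, Col5a1, Col6a1 and Col6a2, the proteoglycans Hspg2 and Ogn, and Sparc. The summed fibroblast markers were at 236, 234, 176 and 75.8 CPM, and at 15.7, 14.5, 26.3 and 9.6 in the Chil3-high cells. The summed tumour cell markers were at 83.8, 69.3, 91.2 and 10.3 CPM, and at 5.42, 6.01, 9.91 and 0.401 in the Chil3-high cells. The part of either cell type in these calls was not tested. Gzmf, a granzyme, had 73, 8, 0 and 2 UMIs, 43 of them in 1 LFD_WT cell of sub-cluster 11.

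**Figure D3:**
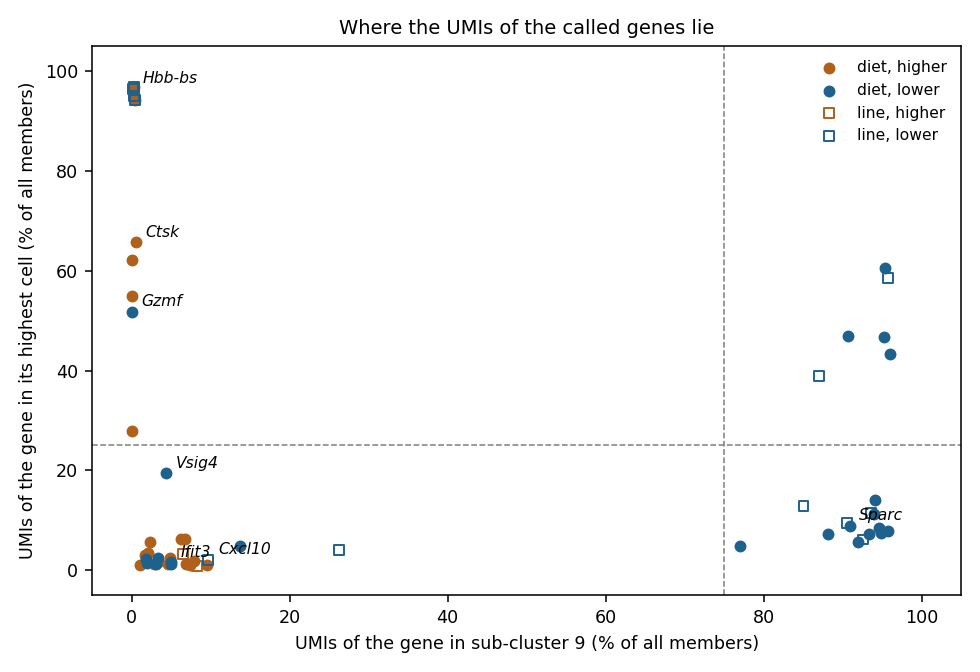
Each point is a gene called for diet or tumour line, placed by the percent of its UMIs in sub-cluster 9 (horizontal) and in its highest single cell (vertical), with dashed lines at 75% and 25%. The 26 genes spread over the gated cells lie at lower left, the hemoglobin genes and Ctsk at the top, and the collagens at the right.

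The calls also depended on HFD_shYap and on the method. When HFD_shYap was represented by its Xist-bearing cells 179 genes were called, and by its Y-bearing cells 0 (328 at an unadjusted p under 0.05). DESeq2 called 8 genes for diet. Fits with 1 library left out also dropped the tumour line term and left 1 library in a diet group. The missing library and the changed model cannot be told apart in them, so their counts are not given. When LFD_shYap was counted as high-fat, as in its treatment field, 8 of the 45 stayed called. The 14 higher and 8 lower genes that were spread over cells kept their direction in each alternative in which they were tested. Their 2 high-fat libraries lay on 1 side of both low-fat libraries for all 22, and for 21 in the Chil3-high cells (not Cxcl9). The same held for all 22 with the Xist-bearing cells of HFD_shYap and for 20 with its Y-bearing cells (not Ass1 and Upp1). The share of all tested genes without such overlap was not counted. These genes were chosen on this contrast, so the counts only describe them, and they are taken next by what they do.

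**Figure D4:**
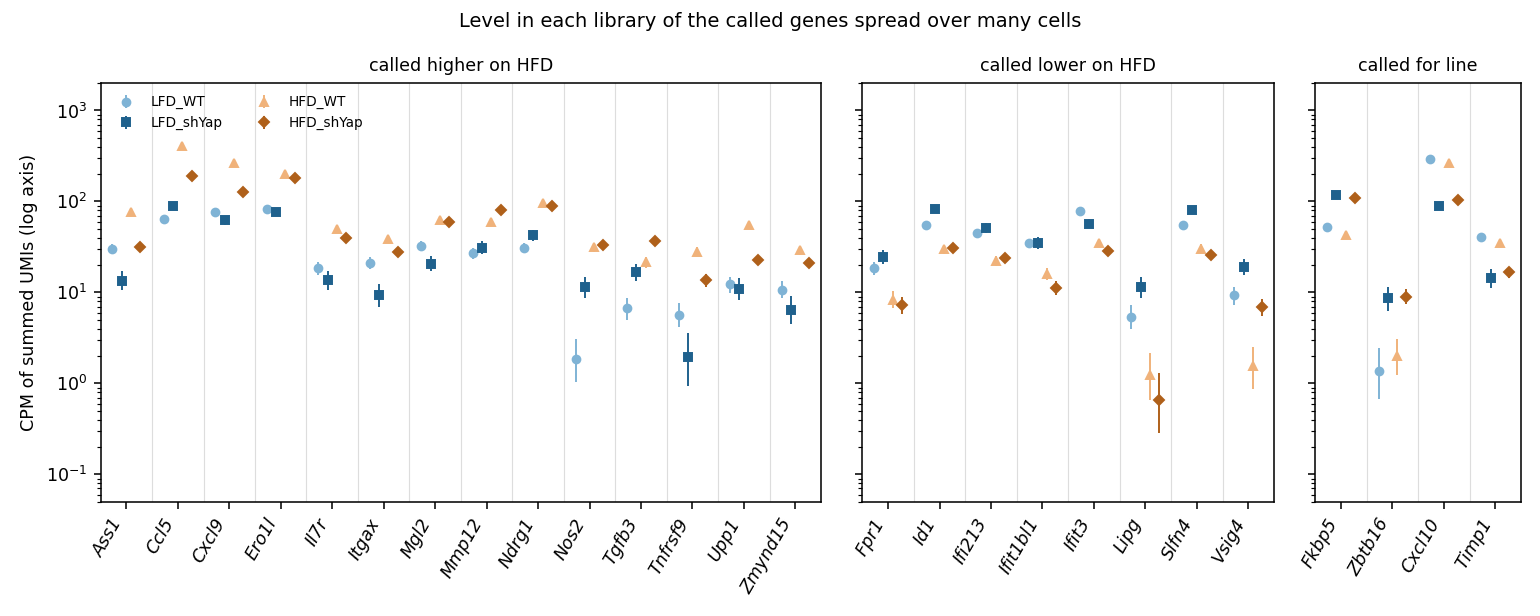
Level in each library (CPM, log axis, with exact 95% Poisson bars for counting error) of the 26 called genes not concentrated in 1 cell or in sub-cluster 9, grouped as higher on the high-fat diet, lower on it, or different by tumour line. Nos2 runs from 1.85 to 33.0 CPM, and the 2 high-fat libraries lie on 1 side of the 2 low-fat libraries for all 22 diet genes, which were chosen on this contrast.

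The genes of arginine use came first. Nos2, the inducible nitric oxide synthase that makes nitric oxide from arginine (chr11:78920787-78960254, plus strand), was at 1.85, 11.6, 31.3 and 32.96 CPM, from 15, 59, 326 and 404 UMIs. LFD_WT was lowest, LFD_shYap stood between it and the high-fat pair, and the groups did not overlap. Nos2 rose on the high-fat diet by a log2 fold change of 2.51 (SE 0.424, adjusted p = 0.0109). The pattern was present in the Chil3-high cells, at 3.61, 17.3, 43.6 and 67.7 CPM, and in both fractions of HFD_shYap, at 52.4 CPM in the Xist-bearing and 25.9 in the Y-bearing cells. Ass1, which remakes arginine from citrulline, was at 30.3, 13.5, 76.1 and 31.6 CPM and rose by 1.25 (SE 0.241, adjusted p = 0.0282), although HFD_shYap was scarcely above LFD_WT. The cationic amino acid transporter Slc7a2 was at 5.19, 14.5, 17.8 and 27.4 CPM (adjusted p = 0.0878), and the competing enzyme Arg1 at 1164, 736, 1074 and 1759.6, with LFD_WT and HFD_WT close to each other (adjusted p = 1). Of 11 genes of arginine metabolism, 2 were called and 10 had a positive log2 fold change, with a median of 0.21 beside -0.0069 over all genes tested.

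A pair of T cell-attracting chemokines rose. Ccl5, an attractant of T cells (chr11:83525778-83530518, minus strand), was at 64.7, 88.5, 411 and 190.0 CPM, highest in HFD_WT, and rose by 1.84 (SE 0.359, adjusted p = 0.0282). It was at 70.8, 67.6, 214 and 125 CPM in the Chil3-high cells. Cxcl9, a ligand of Cxcr3, a chemokine receptor of T cells (chr5:92321347-92328079, minus strand), was at 77.5, 62.1, 261 and 126 CPM and rose by 1.35 (SE 0.282, adjusted p = 0.0431). In the Chil3-high cells Cxcl9 was at 67.7, 42.1, 60.4 and 68.9 CPM, with the diets overlapping. Among attractants of monocytes, Ccl2 and Ccl7 had negative log2 fold changes that did not pass the test: Ccl2 was at 931, 454, 333 and 339.7 CPM (adjusted p = 0.416) and Ccl7 at 387, 132, 108 and 155 (adjusted p = 0.929), both highest in LFD_WT. Of 20 chemokine ligands, 2 were called higher and none lower, with 7 positive, 13 negative and a median of -0.30.

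A pair of genes known to respond to low oxygen rose on the high-fat diet. Ero1l, an oxidase that forms disulfide bonds in the endoplasmic reticulum (chr14:45283087-45318771, minus strand), was at 81.7, 76.4, 202 and 180.3 CPM, with no overlap, and rose by 1.23 (SE 0.254, adjusted p = 0.0398). Ndrg1, a stress-induced growth regulator (chr15:66929318-66969640, minus strand), was at 30.9, 42.5, 96.5 and 89.7 CPM and rose by 1.32 (SE 0.257, adjusted p = 0.0282). In the Chil3-high cells Ero1l was at 101, 86.3, 299 and 266 and Ndrg1 at 31.9, 33.96, 118 and 98.97 CPM. Egln3, an oxygen-sensing hydroxylase, was at 19.1, 18.02, 35.5 and 45.4 CPM and missed the threshold (adjusted p = 0.0545), as did the mitophagy gene Bnip3 at 82.7, 81.3, 150.3 and 175 (adjusted p = 0.177). All 23 tested genes of hypoxia and glycolysis had a positive log2 fold change, 2 of them called, with a median of 0.39. No glycolytic enzyme was called: Gapdh was at 1693, 1752, 2129 and 1864 and Ldha at 676, 567, 805 and 736 CPM. With the Y-bearing cells alone for HFD_shYap, 22 of the 23 stayed positive with none called, and with the Xist-bearing cells alone all 23 were positive with 7 called, beside 83 of 11012 genes called higher (0.754%). The heat shock and hypoxia genes Ero1l, Hspa1a and Hspa1b also lead sub-cluster 5, which held 16, 19, 155 and 82 cells of the 4 libraries, and their part in these differences was not tested.

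Surface receptors and secreted proteins made up most of the other higher genes. Il7r, the receptor of interleukin 7 (chr15:9505788-9530176, minus strand), was at 18.5, 13.7, 49.2 and 39.5 CPM and rose by 1.42 (SE 0.235, adjusted p = 0.0109), with 16.3, 10.97, 55.1 and 43.7 CPM in the Chil3-high cells. Tnfrsf9, the costimulatory receptor 4-1BB (chr4:150914562-150946102, plus strand), was at 5.68, 1.958, 27.95 and 13.5 CPM from 46, 10, 291 and 166 UMIs and rose by 2.46 (SE 0.307, adjusted p = 0.000688). Il7r, Tnfrsf9 and Ccl5 are known from lymphocytes too. The 8 T cell markers summed to 8.4, 7.4, 12.3 and 7.4 CPM, with Cd3d, Cd3e and Cd3g at 0 by the gate. The 7 NK cell markers summed to 43.6, 19.2, 18.4 and 14.5, with Ncr1 and Klrb1c at 0 by the gate. Sub-cluster 11, which led with Gzma and Il2rb, had the highest Ccl5 of the 11, at 711 CPM. Without sub-clusters 9 to 11 the log2 fold changes were 1.85 for Ccl5 (edgeR adjusted p = 0.0144), 1.34 for Il7r (adjusted p = 0.00636) and 2.55 for Tnfrsf9 (adjusted p = 6.76e-05). Itgax, the integrin CD11c, was at 21.2, 9.40, 38.7 and 27.5 CPM (log2 1.14 (SE 0.239, adjusted p = 0.0431)), and the lectin Mgl2, which leads sub-cluster 2, at 32.2, 20.8, 62.6 and 59.4 (log2 1.18 (SE 0.236, adjusted p = 0.032)). Both rose, and both are also carried by dendritic cells: the 6 markers of type 2 conventional dendritic cells, Mgl2 among them, summed to 65.0, 54.6, 90.5 and 94.9 CPM. Without sub-clusters 9 to 11 the log2 fold changes were 1.22 for Itgax (edgeR adjusted p = 0.0199) and 1.08 for Mgl2 (adjusted p = 0.0262). That fit left out the type 1-like sub-cluster 10 but kept sub-cluster 2. The part of type 2 dendritic cells in Itgax and Mgl2 was not tested.

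The remaining higher genes were Mmp12, Upp1, Zmynd15 and Tgfb3. Mmp12, the macrophage elastase, was at 26.8, 31.1, 59.4 and 80.3 CPM and rose by 1.21 (SE 0.233, adjusted p = 0.028). In the Chil3-high cells it was at 2.71, 1.42, 28.2 and 36.5 CPM. Upp1, uridine phosphorylase, was at 12.2, 10.97, 54.9 and 22.8 CPM and rose by 1.61 (SE 0.293, adjusted p = 0.0193), but the 2 fractions of HFD_shYap differed, at 55.2 in the Xist-bearing and 11.7 in the Y-bearing cells. Zmynd15 was at 10.7, 6.46, 29.01 and 21.3 CPM and rose by 1.53 (SE 0.258, adjusted p = 0.0109). Tgfb3, a growth factor of the TGF-beta family, lay outside the rule for named genes and was picked after its values were seen. It was at 6.67, 16.6, 21.4 and 36.5 CPM and rose by 1.34 (SE 0.262, adjusted p = 0.0282).

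On the lower side, 4 interferon-induced genes fell on the high-fat diet. Ifit3, which binds viral RNA as part of a complex of Ifit proteins (chr19:34583531-34588731, plus strand), was at 78.2, 57.2, 35.3 and 28.2 CPM, with both high-fat libraries below both low-fat ones. It fell by 1.13 on the log2 scale (SE 0.231, adjusted p = 0.0379). Ifit1bl1, a relative of Ifit1, was at 34.6, 35.1, 16.1 and 11.3 CPM (log2 -1.41 (SE 0.2504, adjusted p = 0.0183)), and Ifi213, of the DNA-sensing Ifi200 family, at 44.7, 51.5, 22.4 and 24.1 (log2 -1.09 (SE 0.234, adjusted p = 0.0496)). Slfn4, a Schlafen gene of myeloid cells, was at 54.6, 80.3, 30.3 and 26.1 CPM (log2 -1.28 (SE 0.265, adjusted p = 0.0398)). Ifit1bl1, Ifi213 and Slfn4 fell too. Related copies of Ifit1bl1, Ifi213 and Slfn4 lie beside them in the genome, so reads may be split and their counts are uncertain. All 20 tested genes of the type I interferon list had a negative log2 fold change, with a median of -0.52 and 1, Ifit3, called. Isg15, a ubiquitin-like protein, was at 668, 500.1, 446 and 230.0 CPM (adjusted p = 0.615), Irf7, the factor that amplifies interferon, at 306, 361, 224 and 178 (adjusted p = 0.767), and Rsad2, the antiviral viperin, at 258, 119.6, 148 and 117 (adjusted p = 1).

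In the Chil3-high cells all 20 genes of the type I interferon list were again negative for diet, with a median of -0.49 and none called. Ifit3 there was at 144, 81.7, 66.6 and 54.9 CPM. The 2 fractions of HFD_shYap lay apart on Ifit3, at 13.8 CPM in the Xist-bearing and 30.5 in the Y-bearing cells. With the Xist-bearing cells alone 11 list genes were called lower, beside 96 of 11012 genes (0.872%), and with the Y-bearing cells alone none, although 19 of 20 stayed negative. The interferon-led sub-cluster 4 held 190, 45, 84 and 67 cells, and its part was not tested.

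The promoters of these genes are shown because the list moved together. Interferon acts on such genes through a repeated GAAA element bound by the IRF factors. The pattern GAAANNGAAA was searched on both strands in the 250 bases before the RefSeq start sites of GRCm38.p6. It was present in 936 of 27025 genes with a promoter entry (3.46%), in 325 of 9049 genes tested in the gated cells (3.59%), and in 7 of the 16 type I interferon genes with an entry (43.8%). A match is a description of the letters, not evidence of binding. The lines below run 5′ to 3′ on the gene's strand, with the matches in capitals, read on the other strand as TTTCNNTTTC. They are Ifit3, with matches starting 156 and 122 bases before the start site (chr19:34583327-34583446, plus strand), Ifi213 (chr1:173599306-173599425, minus strand), Isg15 with 3 overlapping matches (chr4:156200845-156200964, minus strand), and Cxcl10, called for tumour line below (chr5:92349063-92349139, minus strand).
Ifit3: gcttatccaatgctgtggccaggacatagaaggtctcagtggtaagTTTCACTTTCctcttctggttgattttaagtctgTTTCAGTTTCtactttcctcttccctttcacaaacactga
Ifi213: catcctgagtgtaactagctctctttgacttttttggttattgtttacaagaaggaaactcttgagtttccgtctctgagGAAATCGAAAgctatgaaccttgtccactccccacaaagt
Isg15: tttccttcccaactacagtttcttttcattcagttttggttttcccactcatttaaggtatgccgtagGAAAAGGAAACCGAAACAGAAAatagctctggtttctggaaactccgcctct
Cxcl10: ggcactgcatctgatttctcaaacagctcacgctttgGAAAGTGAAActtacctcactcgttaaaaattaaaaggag

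The type I interferon genes with a match were Isg15, Ifit1, Ifit3, Rsad2, Oas3, Ifi205 and Stat2, and those without were Ifit2, Oasl1, Oasl2, Irf7, Cmpk2, Ifi44, Xaf1, Ifitm3 and Ddx58. Slfn4 had none either. The other lower genes spread over cells were Fpr1, Id1, Lipg and Vsig4. Fpr1, the receptor for formylated bacterial peptides, was at 18.5, 24.5, 8.36 and 7.26 CPM and fell by 1.49 on the log2 scale (SE 0.285, adjusted p = 0.0277). Id1, an inhibitor of helix-loop-helix factors, was at 55.2, 82.1, 29.97 and 31.1 CPM and fell by 1.19 on the log2 scale (SE 0.2503, adjusted p = 0.0434). Lipg, endothelial lipase, had only 44, 59, 13 and 8 UMIs and fell by 3.13 on the log2 scale (SE 0.527, adjusted p = 0.0109). Vsig4, a complement receptor of Kupffer cells, the resident macrophages of the liver, was at 9.27, 18.99, 1.54 and 6.93 CPM and fell by 1.99 on the log2 scale (SE 0.331, adjusted p = 0.0109). Single cells held 62.4% of its UMIs in HFD_shYap and 68.8% in HFD_WT. The 6 Kupffer cell markers, Vsig4 among them, summed to 89.4, 65.0, 35.2 and 53.4 CPM, and their part in the Vsig4 result was not tested.

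In the other gene lists few genes were called. The MHC class II genes, which present peptides to CD4 T cells, had 8 positive and 4 negative log2 fold changes of 12, with a median of 0.43. None was called, though 5 of 10 were called higher after thinning, where 26 of 7288 genes were (0.357%). H2-Aa was at 968, 1082, 2212 and 1755 CPM (adjusted p = 0.894) and the invariant chain Cd74 at 2419.9, 2678, 5504 and 4106 (adjusted p = 1), with both high-fat libraries above both low-fat ones. Of 18 interferon-gamma response genes 14 were positive, with a median of 0.40 and Cxcl9 the 1 called, against 11 of 17 and 0.10 in the Chil3-high cells with none called. The interferon-gamma-induced GTPase Gbp2 was at 85.7, 63.3, 158 and 147 CPM (adjusted p = 0.124). Interferon-gamma and type I interferon lists thus had medians of opposite sign. Of 17 cholesterol and fatty acid synthesis genes 16 were positive, with a median of 0.27 and none called.

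The classical monocyte list, which shares Plac8, Chil3 and Vcan with the markers, had 19 negative and 1 positive log2 fold changes of 20 and a median of -0.52, with none called. In the Chil3-high cells the same list had 11 negative and 9 positive, with a median of -0.03. Chil3 in the whole gate had a log2 fold change of -1.93 (SE 0.499, adjusted p = 0.169). F10 and Thbs1 (thrombospondin 1) were nearest to no difference, with -0.04 and 0.00. Oxidative phosphorylation had 19 of 20 genes negative with a median of -0.14, and macrophage maturation 15 of 20 positive with a median of 0.25 and Itgax called. The macrophage maturation list turned in the Chil3-high cells, with 5 positive and 15 negative and a median of -0.23.

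**Figure D5:**
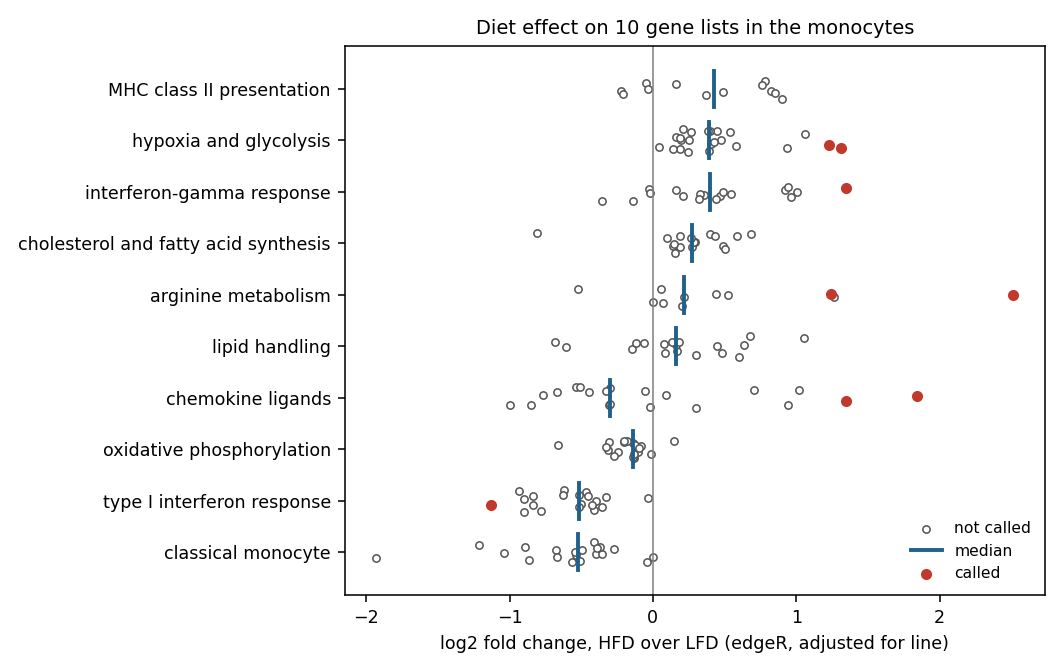
Diet log2 fold change (high-fat minus low-fat) of each tested gene in 10 lists, with called genes filled and the list median as a bar. All 20 type I interferon genes lie below 0 with a median of -0.52, and all 23 hypoxia and glycolysis genes above 0 with a median of 0.39.

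The diet fit was repeated on the Chil3-high cells alone, 476, 317, 393 and 265 of them, as an alternative added after seeing the data. The 4 sums differ in makeup: sub-cluster 5 made up 3.36%, 5.99%, 39.4% and 30.9% of the Chil3-high cells, and sub-cluster 7 made up 39.7% of those of LFD_shYap and at most 5.85% of the others. The fit called 33 of 8951 genes higher (0.369%) and 16 lower (0.179%), 13 of them called in the whole gate too. Nos2, Ero1l, Ndrg1, Il7r, Upp1, Mmp12 and Ccl5 rose there as well. Sub-cluster 5 had the highest levels of Nos2 (83.0 CPM), Ero1l (535), Ndrg1 (212) and Upp1 (128) of the 11, and its part in these calls was not tested. So did 4 of the 9 tested MHC class II genes, with a list median of 1.16: H2-Aa was at 169, 199, 598 and 444 CPM (log2 1.51, edgeR adjusted p = 0.000191) and Cd74 at 669.6, 699, 1818 and 1435 (log2 1.26, adjusted p = 0.00243). H2-Ab1 and H2-Eb1 were the other called members. Hypoxia and glycolysis had 22 of 22 genes positive and 4 called, with Egln3 and Bnip3 joining Ero1l and Ndrg1. Apoe fell, at 13993, 17899, 6295 and 8814 CPM (log2 -1.06, edgeR adjusted p = 0.0175). In the C1q macrophages it was at 38398, 47654, 27749 and 23420, and the part of free RNA was not tested. The sialic acid receptor Siglec1 and the leukotriene genes Alox5 and Ltc4s fell too. The scavenger receptor Lyve1 was called lower at 27.7, 6.37, 2.79 and 1.60 CPM, and the growth factor Areg at 85.5, 13.1, 11.1 and 10.8. LFD_WT was highest for both, and for Areg LFD_shYap lay close to the high-fat libraries. For tumour line 2 genes were called, both lower (0.0223%): Cxcl10 and G0s2. Chil3 is not read here, since it chose the sub-clusters. They were built from variable genes of these same cells, so the other genes named here may have shaped the set too. Leaving out sub-clusters 2 and 10, with Cd74 at 9980 and 13557 CPM, also took out the cells highest in it. These calls and their adjusted p-values are therefore a description, not separate support for those of the whole gate. These genes were picked after their values were seen. Upp1, Ero1l, Inhba, Hspa1a and Hspa1b lead sub-cluster 5, 1 of the 5 Chil3-high sub-clusters.

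The 2 fractions of HFD_shYap differed from each other within 1 library. Sub-cluster 1 held 65 of 216 Xist-bearing cells (30.1%) and 253 of 446 Y-bearing cells (56.7%), and sub-cluster 5 held 21.8% and 4.48%. Chil3 was at 3208 CPM in the Xist-bearing and 762 in the Y-bearing cells, Plac8 at 1418 and 627, and Cxcl10 at 35.5 and 129.

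The tumour line was tested in the same edgeR fit. shYap was higher for 2 of 11554 genes (0.0173%) and lower for 12 (0.104%), 14 in all (0.121%). Both higher genes are known targets of the glucocorticoid receptor. Fkbp5, a chaperone that restrains that receptor (chr17:28399094-28517527, minus strand), was at 52.8, 119, 42.7 and 109 CPM, with both shYap libraries above both WT libraries, and rose by 1.27 (SE 0.238, adjusted p = 0.0366). It was at 50.9, 108, 42.4 and 66.9 CPM in the Chil3-high cells, at 94.2 and 114 in the Xist-bearing and Y-bearing cells of HFD_shYap, and at 69.7, 199.8, 58.5 and 135 in the C1q macrophages. Zbtb16, a zinc finger factor (chr9:48654297-48836222, minus strand), was at 1.36, 8.62, 2.02 and 8.97 CPM from 11, 44, 21 and 110 UMIs and rose by 2.37 (SE 0.405, adjusted p = 0.0205). Of 11 glucocorticoid target genes 9 were positive, with a median of 0.30 beside -0.0017 over all genes. Tsc22d3 was at 57.7, 84.8, 65.8 and 141 CPM (adjusted p = 0.28) and Klf9 at 29.7, 53.1, 23.1 and 47.7 (adjusted p = 0.147), both with the shYap libraries above the WT libraries, while Sgk1 and Zfp36 did not follow, at 95.01, 77.7, 125 and 116 and 455, 328, 342 and 543. In the Chil3-high cells 6 of the 11 were positive.

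Of the 12 lower genes, 10 were concentrated, among them the 4 hemoglobin genes in 1 cell, Aqp1, Fermt2, Khdrbs3 and Map1b in sub-cluster 9, and Esm1 in both ways. The 2 spread over cells were Cxcl10 and Timp1. Cxcl10, an interferon-induced ligand of Cxcr3 (chr5:92346638-92348889, minus strand), was at 294, 89.7, 261 and 104 CPM, with both shYap libraries below both WT libraries, and fell by 1.51 on the log2 scale (SE 0.263, adjusted p = 0.0207). It was at 499.5, 120.3, 239.9 and 144 CPM in the Chil3-high cells, where it was called too (log2 -1.37, edgeR adjusted p = 0.0217). Timp1, an inhibitor of matrix proteases, was at 40.6, 14.3, 35.1 and 16.7 CPM and fell by 1.27 on the log2 scale (SE 0.230, adjusted p = 0.028), with 26.2% of its UMIs in sub-cluster 9. Of 20 chemokine ligands 18 were negative for tumour line, with Cxcl10 alone called and a median of -0.42. Ccl12 was at 358, 101, 154 and 119.8 CPM (adjusted p = 0.261), the neutrophil attractant Cxcl1 at 107, 59.1, 118 and 52.3 (adjusted p = 0.158) and the eosinophil attractant Ccl24 at 243, 17.6, 51.7 and 50.7 (adjusted p = 0.316). With LFD_shYap counted as high-fat the chemokine list was 9 positive and 11 negative. All 18 cell cycle genes were negative, with a median of -0.50 and none called. In the Chil3-high cells 11 of 15 were negative, with a median of -0.18.

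These line calls were few and unstable. With the Y-bearing cells alone for HFD_shYap none was called (436 at an unadjusted p under 0.05), with the Xist-bearing cells alone 155, and by DESeq2 1. Fits with 1 library left out also dropped the diet term and left 1 library in a line group, so their counts are not given. The log2 fold change of Cxcl10 stayed between -2.16 and -1.37 over 17 alternatives, and that of Fkbp5 between 0.91 and 1.42.

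Whether an effect differed from that in the C1q macrophages was tested in 1 edgeR model with library as a block. The diet effect differed for 209 of 13720 genes (1.52%), 81 higher in the gated cells (0.59%) and 128 lower (0.933%), and the line effect for 94 (0.685%), 13 higher (0.0948%) and 81 lower (0.59%). With the treatment field's diet 5 and 3 genes differed, and with the Y-bearing cells alone 13 and 0. Cxcl9 rose more in the macrophages, where it was at 41.6, 40.3, 319 and 212 CPM with a diet effect of 2.63 (adjusted p = 0.0203): the gated cells' effect minus theirs was -1.28 (adjusted p = 4.89e-09). For H2-Aa the difference was -0.80 (adjusted p = 0.000839), for Itgax -1.06 (adjusted p = 0.000163) and for Ass1 -0.78 (adjusted p = 0.0104), all in the same direction. Ero1l went the other way, with 0.63 (adjusted p = 0.023). The fall of Ifit3 was larger in the gated cells by -0.62 (adjusted p = 0.0328), and Irf7, at 155, 113, 150.1 and 164 CPM in the macrophages, differed by -0.97 (adjusted p = 4.12e-05). For tumour line, the fall of Cxcl10 was larger in the gated cells, by -0.67 (adjusted p = 0.0236). The sums of the 2 classes come from the same droplets and animals, and C1q divides them.

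Single libraries showed further differences, which have no replicate and were not tested. At a CPM ratio of at least 2, HFD_WT was above LFD_WT for 26 of 2799 genes (0.929%) and below it for 20 (0.715%). HFD_shYap was above HFD_WT for 32 of 2955 (1.08%) and below it for 27 (0.914%). LFD_shYap was above LFD_WT for 23 of 2798 (0.822%) and below it for 24 (0.858%). The widest pair was HFD_shYap and LFD_shYap, with 62 of 2947 genes above (2.1%) and 44 below (1.49%). LFD_shYap stood apart from LFD_WT on acute-phase and granule genes: Saa3, serum amyloid A, was at 67.5, 736, 124 and 63.1 CPM, Lcn2, a siderophore-binding protein, at 52.3, 267, 56.7 and 20.9, Mmp8, the neutrophil collagenase, at 51.1, 247, 74.5 and 29.6, and Lrg1 at 23.6, 109, 25.3 and 11.6. LFD_shYap was the highest library for all 4, and they overlap the leading genes of sub-cluster 7. The 8 neutrophil markers, Mmp8 among them, summed to 273.5, 548.3, 284.6 and 151.5 CPM, with S100a8 and S100a9 capped by the gate, and their part was not tested. LFD_WT was highest for the growth factor Areg, at 58.9, 9.40, 22.7 and 16.7 CPM, and for Lyve1, at 55.5, 13.7, 6.44 and 14.8. Ly6i, another Ly6 family member, was at 13.8, 19.6, 74.6 and 27.5 CPM, highest in HFD_WT, and the heat shock gene Hspa1b at 30.02, 68.5, 164 and 107. HFD_shYap was highest for Lars2, the mitochondrial leucyl-tRNA synthetase, at 102, 112, 139 and 478 CPM, and for the splicing-associated Rsrp1 at 163, 142, 139 and 370.2. Gm42418, which overlaps ribosomal RNA and was picked after its values were seen, was at 6641, 9953, 9318 and 35237 CPM, so HFD_shYap also stood apart in RNA composition. Cebpa, the myeloid transcription factor, was at 50.04, 50.7, 43.1 and 115 CPM, with 68.3 in the Xist-bearing and 132 in the Y-bearing cells.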

How the data were processed

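Single-cell RNA was measured in 4 libraries. The deposited values are raw UMI counts by gene and barcode, from Cell Ranger 6.0.0 per the file headers, whereas the submitters' processing notes give Cell Ranger 4.0.0 with STAR 2.5.1 and mm10. Per the labels' protocols the kit was 10x Genomics Single Cell 3′ v3.1. Of 32285 genes, 32158 were matched to GENCODE for coordinates on GRCm38. A 3′ count says nothing of splice forms.

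The members, gene lists, tests and alternatives were chosen with earlier results of these data known. Counts were summed per library over the gated cells and tested with edgeR 4.0.16 in R 4.3.3 (quasi-likelihood, TMM, filterByExpr with a minimum count of 10, diet and line as additive terms, Benjamini-Hochberg at 0.05). Each SE is the size of the log2 fold change over the root of its F value. The number of mice behind a library is not stated, and no combination has a second library. The 1 residual degree of freedom is the departure of these 4 libraries from additive diet and line effects. Each p-value rests on that departure, moderated across genes. Noise, which may be technical, and a diet effect that differs by tumour line cannot be told apart in it. Alternatives were thinned depths, other gates, RLE size factors, DESeq2 1.42.0, no filter, 1 factor alone, the treatment field and each library left out. The fits with a library left out held only the tested factor. Doublets were scored against simulated ones with scanpy 1.11.5, and the top 0.8% per 1000 barcodes were removed in 1 alternative. Gated cells were clustered with 1500 variable genes, 20 components, 15 neighbours and a Leiden resolution of 0.6. The fits were tested on simulated data.

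Named genes were the gate's and marker genes, the 6 called genes of smallest p per direction, called or highest members of each list, and the 4 highest and 4 lowest CPM ratios of 3 pairs of libraries with at least 50 CPM and 30 UMIs. Added to these were the 12 highest and 12 lowest genes beside the C1q macrophages and 6 leading genes of each sub-cluster. Mitochondrial, ribosomal, hemoglobin, sex-linked and Gm genes were left out where genes were ranked. A few genes that this rule names are not reported here.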

Additional observations from a re-analysis of the deposited data

Results flagged for a closer look

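For 19 of the genes called in the gated cells and reported here, the effect differed from that in the C1q macrophages by the edgeR test of the difference (adjusted p under 0.05); values are the gated cells' log2 fold change minus the macrophages'. For diet the difference was negative for Lipg (-2.55), Cxcl9 (-1.28), Sparc (-1.20), Fpr1 (-1.18), Itgax (-1.06), Ifi213 (-0.86), Ass1 (-0.78), Mmp12 (-0.68) and Ifit3 (-0.62). It was positive for Slc9b2 (9.51), Ctsk (5.56) and Ero1l (0.63). Slc9b2 and Ctsk had over 25% of their UMIs in 1 cell, and Sparc over 75% in sub-cluster 9.

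For tumour line the difference was negative for Esm1 (-4.05), Khdrbs3 (-2.66), Fermt2 (-2.45), Aqp1 (-2.44), Map1b (-2.01), Timp1 (-0.81) and Cxcl10 (-0.67). Those listed other than Timp1 and Cxcl10 had over 75% of their UMIs in sub-cluster 9.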

How the results depend on the processing

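For diet 45 genes were called. The count was 49 after thinning, 161 with no filter on low counts, 98 with C1q under 0.5%, 83 with at least 5 UMIs of Ly6c2 and Ccr2, 77 with likely doublets removed and 179 with the Xist-bearing cells of HFD_shYap. It was 19 with the treatment field's diet, 8 with DESeq2, 2 with diet as the only factor and 0 with the Y-bearing cells (edgeR, 328 at an unadjusted p under 0.05, against 8 for DESeq2 on all cells). Leaving out 1 library gave 8 to 81. For tumour line 14 genes were called. The count was 158 with no filter, 181 with C1q under 0.5%, 38 with at least 5 UMIs, 61 without likely doublets, 22 with the treatment field, 155 with the Xist-bearing cells, 7 after thinning, 2 in the Chil3-high cells and 1 with DESeq2. By edgeR it was 0 with line as the only factor (561 at an unadjusted p under 0.05) and 0 with the Y-bearing cells (436), where DESeq2 on all cells gave 1. Leaving out 1 library gave 0 to 191; the lone library of an arm was then assumed to vary like the others. Of the genes whose diet or line effect differed from the macrophages' (209 and 94), 5 and 3 were called with the treatment field and 13 and 0 with the Y-bearing cells (419 at an unadjusted p under 0.05 for line).

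In shares, HFD_WT minus LFD_WT was 3.95 percentage points among phagocytes and -0.0384 after thinning, a reversal. HFD_shYap minus HFD_WT was 0.317 with C1q under 0.5%, 2.51 with at least 5 UMIs, 5.25 among phagocytes, 0.298 after thinning, and 2.76 and 6.81 with the Xist-bearing and Y-bearing cells. LFD_shYap minus LFD_WT was -1.02 with C1q under 0.5% and -1.10 with at least 5 UMIs. HFD_shYap minus LFD_shYap was 2.10, 4.15, 10.9, 1.60, 5.37 and 9.42 with C1q under 0.5%, at least 5 UMIs, among phagocytes, after thinning, and with the Xist-bearing and Y-bearing cells.

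Diet effects reversed for concentrated genes. With 1 library left out they ran from -6.51 to 5.98 for Hbb-bt, -3.90 to 5.78 for Hba-a1, -3.37 to 6.49 for Hbb-bs and -3.14 to 6.43 for Hba-a2, lowest without HFD_WT, which holds the cell with those UMIs. With at least 5 UMIs, Hbb-bs was at -0.22 and Hba-a1 at -1.54. Hbb-bt was at -0.072 with DESeq2, and Hbb-bs at -0.63 in the Chil3-high cells. Sparc was at 0.36 after thinning, 0.68 in the Chil3-high cells and 0.16 without sub-clusters 9 to 11. The cause of the other shifts was not tested. No paired analysis was possible because each combination of diet and tumour line had 1 library. The replicate number is the same for every library and so defines no pairs. Tumour line was already a term of the main diet fit. LFD_shYap has the fewest gated cells and UMIs, and intervals and floors cover counting error only.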
